A study of Lolium arundinaceum with 6 samples.

Results

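A set of 16 transcripts that were abundant in unheated tall fescue leaves and low after both durations of heat is described here. They were chosen by level from 179680 unigenes, the gene-level sequences that the authors had assembled from their own reads. Levels are in CPM, a unigene's counts divided by the total of its library and multiplied by 1000000. A unigene became a member when its lowest control library held at least 80 CPM and its highest heated library held at most 0.3 of that value. Of 1305 unigenes with at least 80 CPM in both controls, 19 were at or under this limit in both libraries of 2 h and 179 in both libraries of 12 h, and the 16 members were under it at both times. A further 3 unigenes were under the limit at 2 h only and 163 at 12 h only.

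Tall fescue is a cool-season, polyploid turfgrass. Wild-type plants of variety Fire Phoenix II were raised on MS medium, and at 10 days of age their leaves were sampled at 23 °C or after 2 or 12 h at 38 °C, with 2 biological replicates per condition. The controls, labelled 0 h, serve both heat times, so that hours of heat and time of day cannot be told apart, and both comparisons with the controls share the same libraries. Library totals were 6349776 to 7891567 counts. Among 7 named light harvesting and photosystem unigenes tested, PSAK and PSBS were abundant, as in leaf. The photosystem I subunit PSAK (c132391_g1) was at 5210 and 5198 CPM in the controls, 4814 and 3705 CPM after 2 h and 1722 and 1709 CPM at 12 h. PSBS (c137256_g1) was at 1926 and 1935 CPM in the controls. The others had control means of 0.0634 to 110 CPM, so the list as a group does not mark the tissue. The chloroplast small heat shock protein HSP21 (c141018_g3) marked the treatment, with 287 and 302 CPM in the controls against 10820 CPM or more in each heated library.

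When a plant is heated, heat shock factors switch on chaperone genes, while many transcripts that were abundant before the heat become scarce. The level of a transcript reflects both how fast it is made and how fast it is degraded, and RNA-seq of whole leaves reads only the level. Slower synthesis and faster decay therefore cannot be told apart here, nor can fewer cells of a type and less RNA per cell.

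The members made up the same share of both control libraries and a small share of every heated library. Their summed level was 3373 and 3371 CPM in the controls, 472 and 695 CPM after 2 h, and 406 and 377 CPM at 12 h. The sum left at 2 h was 17.3 ± 4.68% of the control mean (SD, n = 2), and the sum left at 12 h was 11.6 ± 0.619%. These sums follow from the selection and are given as a description without a test. The mean control levels of single members ran from 83.9 to 583 CPM with a median of 118 CPM, ranks 164 to 1304 among all unigenes, so that the set did not include the most abundant leaf transcripts.

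**Figure D1:**
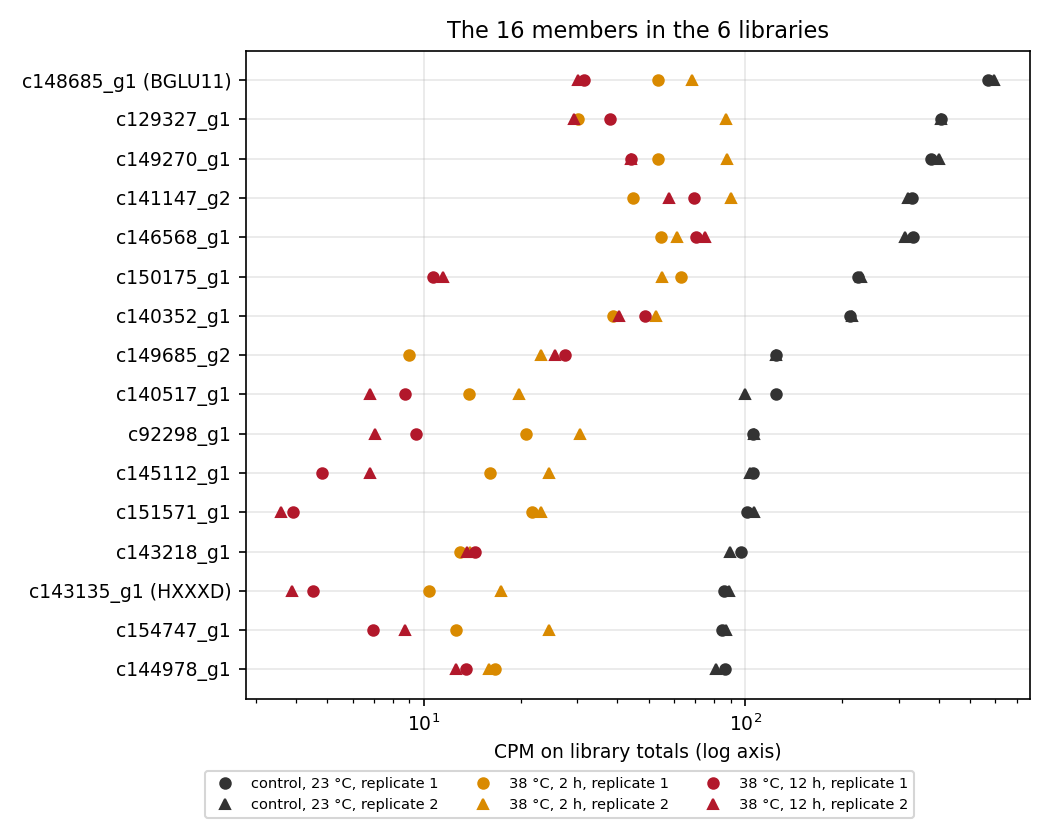
Level of each of the 16 members in the 6 libraries, in CPM on a log axis. Grey symbols are controls at 23 °C, orange symbols 2 h and red symbols 12 h at 38 °C, with circles for replicate 1 and triangles for replicate 2. The control symbols of each member lie close together and to the right of all heated symbols, which the selection required. The order of red and orange symbols differs between members.

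Only 2 members carry a name in the tables of the study that were read. The first, c148685_g1, was the most abundant in the controls and is matched to BGLU11 of Arabidopsis and to a rice beta-glucosidase homologue. Enzymes of this family remove glucose from glycosides, among them stored defence compounds, cell wall fragments and hormone conjugates. Its level was 572 and 595 CPM in the controls, 53.4 and 68.0 CPM after 2 h, and 31.6 and 30.2 CPM at 12 h. With 10.4% of the control mean left, it had the smallest share of its control level left of the members at 2 h, and it was lower still in both libraries of 12 h, where 5.29% was left.

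The other named member, c143135_g1, is matched to an HXXXD-type acyltransferase. Proteins with this motif form the BAHD family, which moves acyl groups from coenzyme A onto alcohols and amines of secondary metabolism, including phenolics and surface lipids. Its level was 85.8 and 89.2 CPM without heat, 10.4 and 17.4 CPM at 2 h, and 4.51 and 3.88 CPM at 12 h. The libraries of 12 h were both below those of 2 h, and the level fell from 15.9% of the control mean at 2 h to 4.79% at 12 h. The other 14 members have no name in the part of these tables that was read, and are given by their identifiers. That part holds a name for 1946 unigenes, fewer than the study listed as changed, and for 95 of the 1305 abundant ones. A missing name here therefore does not show that the study had none.

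Because the members were selected on heat against control, only the direct comparison of 12 h with 2 h is reported as a test for them. The selection limits the heated levels at both times and sets no order between them. It does leave out unigenes that crossed the limit between the times, 3 that were under it at 2 h only and 163 at 12 h only. The balance of lower and higher members, and their median, therefore depend in part on the selection. In edgeR's quasi-likelihood test, with a call at a fold of at least 2 and a Benjamini-Hochberg adjusted p of at most 0.05, 5 members were lower at 12 h than at 2 h, 1 was higher and 10 were not called. Among all 28005 unigenes tested, 19.6% were called lower and 16.2% higher at 12 h than at 2 h. Among the 1289 other abundant unigenes, 125 (9.7%) were lower and 164 (12.7%) higher. The median log2 difference between 12 h and 2 h was -0.62 for the members, 0.32 for the other abundant unigenes and -0.09 for all unigenes tested. On library totals alone, without the scaling factors, these medians were -0.89 for the members and -0.36 for all unigenes tested.

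**Figure D2:**
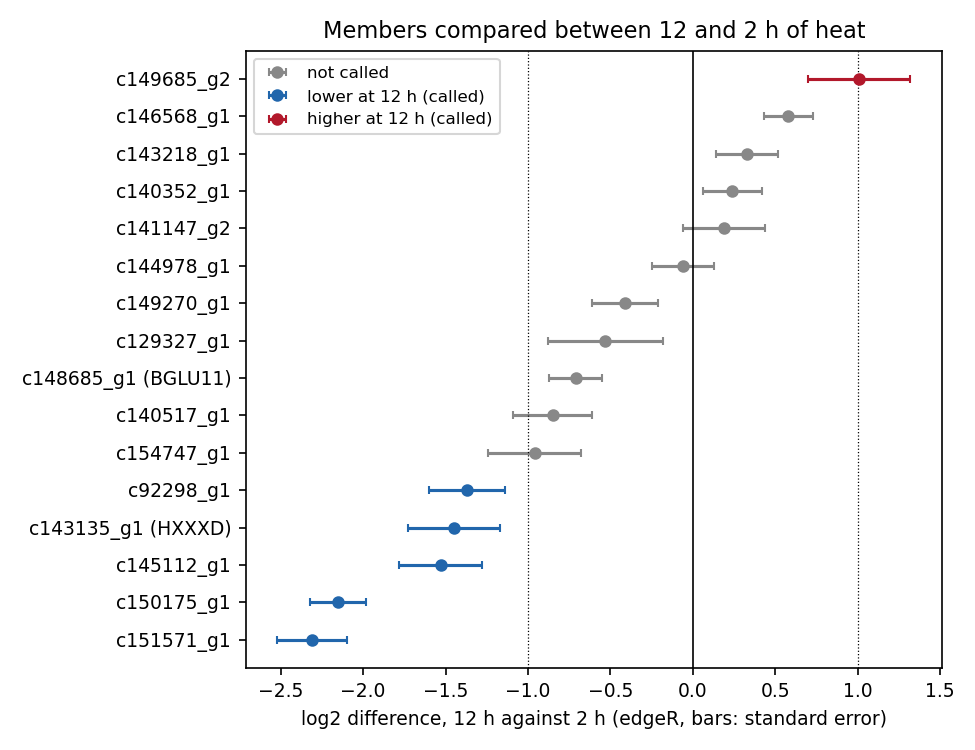
Log2 difference between 12 h and 2 h of heat for each member from edgeR, with bars for the standard error. Blue marks the 5 members called lower, red the 1 called higher and grey the 10 not called, and dotted lines mark the fold limit. The values run from -2.31 for c151571_g1 to 1.01 for c149685_g2.

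Among the 5 members that fell further, c151571_g1 had the largest change. Its level was 101 and 106 CPM in the controls, 21.8 and 23.1 CPM after 2 h, and 3.91 and 3.60 CPM at 12 h, where 26 counts in each library were the lowest of any member. The replicates lay close together, and both libraries of 12 h were below both of 2 h. The log2 difference between 12 h and 2 h was -2.31 ± 0.21 (standard error, adjusted p = 8.7e-06). Next came c150175_g1, with 224 and 229 CPM in the controls, 63.1 and 55.2 CPM after 2 h, and 10.7 and 11.5 CPM at 12 h. It kept the highest share of the members at 2 h, 26.1%, but only 4.90% at 12 h, and its log2 difference was -2.15 ± 0.17 (adjusted p = 3.64e-06).

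In c145112_g1 the level was 106 and 104 CPM in the controls, 15.99 and 24.6 CPM after 2 h, and 4.81 and 6.78 CPM at 12 h. Both libraries of 12 h were below both of 2 h, with a log2 difference of -1.53 ± 0.25 (adjusted p = 0.00048). The named acyltransferase c143135_g1 followed with -1.45 ± 0.28 (adjusted p = 0.00122). In c92298_g1 the level was 106 and 107 CPM in the controls, 20.7 and 30.6 CPM after 2 h, and 9.47 and 7.06 CPM at 12 h. Again the times did not overlap, with a log2 difference of -1.37 ± 0.23 (adjusted p = 0.000652). All 5 of these members were called lower under every alternative fit that was run.

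The only member called higher at 12 h was c149685_g2. Its level was 125 CPM in both controls, 8.96 and 23.2 CPM at 2 h, and 27.5 and 25.6 CPM at 12 h. It rose by a log2 difference of 1.01 ± 0.31 (adjusted p = 0.0184), from 12.9 to 21.3% of the control mean. The 2 h replicates were far apart, and without 2 h replicate 1 the difference was 0.49 and was not called. Reads were also divided between this member and c149685_g1, a similar sequence of the same assembly group. That unigene went the other way, from 39.7% of its control mean at 2 h to 26.0% at 12 h. Whether the rise reflects how reads were divided was not tested.

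A further 4 members had an adjusted p of at most 0.05 with a difference below 2-fold. The log2 difference was -0.71 ± 0.16 for the beta-glucosidase c148685_g1 (adjusted p = 0.00384). For c140517_g1, at 124 and 99.7 CPM in the controls, 13.8 and 19.8 CPM after 2 h, and 8.72 and 6.78 CPM at 12 h, it was -0.85 ± 0.24 (adjusted p = 0.0131). For c154747_g1, at 84.4 and 87.3 CPM in the controls, 12.5 and 24.4 CPM after 2 h, and 6.92 and 8.72 CPM at 12 h, it was -0.96 ± 0.28 (adjusted p = 0.0152). These members were below their 2 h libraries in both libraries of 12 h. The fourth went the other way: c146568_g1 was at 333 and 313 CPM in the controls, 54.6 and 61.5 CPM after 2 h, and 70.1 and 74.9 CPM at 12 h, a log2 difference of 0.58 ± 0.15 (adjusted p = 0.00703).

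The remaining 6 members did not pass the test between the times. Levels of c129327_g1 were 408 and 407 CPM in the controls, 30.2 and 87.2 CPM after 2 h, and 38.0 and 29.3 CPM at 12 h. Those of c141147_g2 were 331 and 322 CPM, then 44.7 and 90.0 CPM, then 69.3 and 58.0 CPM. The 2 h libraries of both enclosed or overlapped those of 12 h, with log2 differences of -0.53 ± 0.35 (adjusted p = 0.227) and 0.19 ± 0.25 (adjusted p = 0.555). In c149270_g1 the level was 378 and 401 CPM in the controls, 53.4 and 87.5 CPM after 2 h, and 44.2 and 44.0 CPM at 12 h (adjusted p = 0.117). The level of c140352_g1 was 212 and 215 CPM in the controls, 38.6 and 52.7 CPM after 2 h, and 48.9 and 40.4 CPM at 12 h (adjusted p = 0.311). The times did not overlap in c149270_g1, with a log2 difference of -0.41 ± 0.20, whereas in c140352_g1 the 2 h libraries enclosed those of 12 h, with 0.24 ± 0.18. The tightest were c143218_g1, with 97.2 and 89.3 CPM in the controls, 12.9 and 13.9 CPM after 2 h and 14.4 and 13.6 CPM at 12 h (adjusted p = 0.17), and c144978_g1, with 86.6 and 81.1 CPM, then 16.6 and 15.95 CPM, then 13.5 and 12.6 CPM (adjusted p = 0.824). In these last members replicates of a condition differed little, and the log2 differences were 0.33 ± 0.19 and -0.06 ± 0.19.

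Over all members, the share of the control mean left at 2 h ran from 10.4 to 26.1% with a median of 18.8%. At 12 h it ran from 3.61 to 22.4% with a median of 8.68%. The limit caps both ranges, and it was met by 19 of the 1305 abundant unigenes at 2 h and by 179 at 12 h. The difference between the ranges therefore depends in part on the selection and was not tested. No member was under 10% at 2 h, and 9 were under 10% at 12 h. Some abundant non-members, such as c132823_g1, with 5.38% left, and c144772_g1, with 2.52% left, were also under 10% at 12 h. The share of such non-members is not given. Because the members were selected for low heated levels, the count of 9 only describes them. Both libraries of 12 h were below both of 2 h in 10 members and above both in 2, and the times overlapped in 4. These counts are on CPM without scaling factors, on which the median log2 difference over all unigenes tested was -0.36. No such count is given for other unigenes, so the counts only describe the members.

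**Figure D3:**
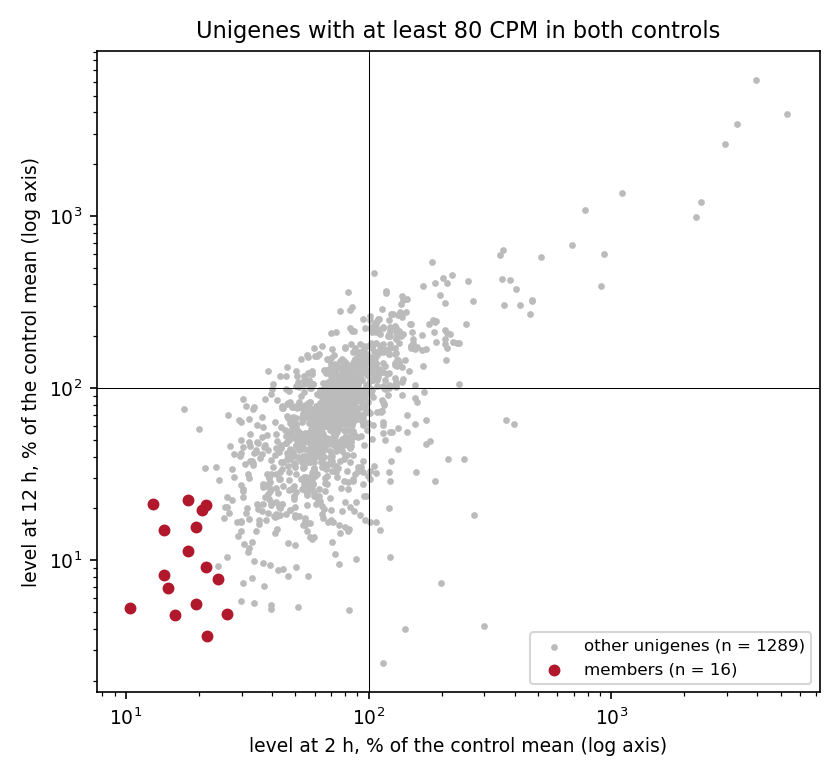
Level left at 2 h (horizontal) and at 12 h (vertical), each as a percentage of the control mean on a log axis, for the 1305 unigenes with at least 80 CPM in both controls. The 16 members, in red, occupy the lower left by selection, at 3.61 to 22.4% on the vertical axis and 10.4 to 26.1% on the horizontal one. Grey points are the 1289 other unigenes.

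The libraries of 2 h differed from each other, in the members and also in other abundant unigenes. Of the 16 members, 14 were higher in 2 h replicate 2 than in replicate 1, with a median log2 ratio of 0.54 and a largest ratio of 1.53 in c129327_g1. Over the other abundant unigenes the median was 0.15, and no count of those higher in replicate 2 is given. Their median absolute log2 ratio was 0.32 at 2 h, against 0.07 in the controls and 0.08 at 12 h. For the members it was 0.54 at 2 h and 0.17 at 12 h. In the controls 8 of 16 members were higher in replicate 2, with a median absolute log2 ratio of 0.05. Of the 28 chaperone and heat shock factor unigenes that were higher at 2 h than in the controls, 14 were lower in replicate 2, with a median log2 ratio of 0.08. Single chaperones differed widely too, with -1.05 in c131474_g1 and 1.08 in c202987_g1. Replicate 2 thus lay on the high side in most members, while the induced chaperones differed in both directions. The part of this difference in the results was not tested. The size of the set rested on this library, since 40 unigenes met the limits without 2 h replicate 2, with all 16 members among them.

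The limits cut through a continuous range of values. Just inside, the ratio of the highest heated to the lowest control library was 0.282 for c150175_g1, 0.288 for c92298_g1 and 0.289 for c154747_g1. Just outside it was 0.305 for c149270_g2, 0.305 for c152424_g1 and 0.315 for c146262_g1. Below the control limit, c131171_g1 had a ratio of 0.126, with 78.0 and 74.3 CPM in the controls and 6.23 to 9.34 CPM in the heated libraries. It was chosen after its values were seen.

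The 3 unigenes that were under the limit at 2 h only show the levels of transcripts left out by the demand for a lasting loss. One is named, c143827_g2, matched to KCS5 of Arabidopsis, a 3-ketoacyl-CoA synthase of the elongation of the very long fatty acids used in surface waxes. Its level was 97.2 and 92.8 CPM in the controls, 10.8 and 27.5 CPM after 2 h, and 59.7 and 50.7 CPM at 12 h. The share left was 20.1% at 2 h and 58.1% at 12 h, a difference that follows from how these unigenes were picked and was given no test. The unnamed c145420_g1 and c155416_g1 went from 27.8 to 41.5% and from 21.3 to 34.5% of their control means. All 3 were named after their values were seen.

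The assembly groups similar sequences into components. The 16 members came from 16 components, and 4 of these components held another unigene, each of which passed the filter on low counts. These 4 partner unigenes are not members, and they share sequence with a member and may share reads with it. In the components c149685 and c149270, reads were divided between member and partner, whose counts were not whole and had fractions that complement each other. In control replicate 1 these counts were 819.39 for c149685_g1 and 792.61 for c149685_g2, and 7369.41 for c149270_g2 and 2399.59 for c149270_g1. The calls of these partners are therefore not independent of the members. The limits were applied to 3 of them, which held at least 80 CPM in both controls and did not meet the heat limit, while c145112_g2 was under the control limit. Against the controls, all 4 were lower at 2 h and all 4 at 12 h. Among all unigenes tested, 8.98% were called lower and 15.1% higher at 2 h, and 23.3% lower and 25.3% higher at 12 h. The median log2 difference of the partners from the controls was -1.84 at 2 h and -2.12 at 12 h, against 0.05 and 0.00 over all unigenes tested and -0.60 and -0.32 over the abundant unigenes. The members were selected on this contrast, so no calls are counted for them.

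The most abundant partner, c149270_g2, was at 1161 and 1261 CPM in the controls, 282 and 354 CPM after 2 h, and 298 and 270 CPM at 12 h. Its log2 difference from the controls was -2.08 ± 0.15 after 2 h (adjusted p = 9.46e-07) and -1.98 ± 0.15 after 12 h (adjusted p = 6.12e-07), and its ratio of 0.305 placed it just outside the set. Levels of c149685_g1 were 129 CPM in both controls, 48.2 and 54.1 CPM at 2 h, and 34.6 and 32.5 CPM at 12 h. It shares its component with the member c149685_g2, and it fell by a log2 difference of -1.48 ± 0.16 after 2 h (adjusted p = 2.05e-05) and -1.83 ± 0.16 after 12 h (adjusted p = 1.74e-06).

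In c141147_g1 the level was 93.1 and 92.5 CPM in the controls, 41.5 and 26.0 CPM after 2 h, and 19.2 and 16.6 CPM at 12 h. The log2 differences from the controls were -1.60 ± 0.22 (adjusted p = 0.000144) and -2.26 ± 0.23 (adjusted p = 5.15e-06). Its 2 h replicates differed in the opposite direction from those of c141147_g2, the member of the same component. The last partner, c145112_g2, was at 39.1 and 45.1 CPM in the controls, 4.48 and 12.6 CPM after 2 h, and 5.71 and 5.54 CPM at 12 h, with log2 differences of -2.47 ± 0.33 (adjusted p = 0.000143) and -2.79 ± 0.35 (adjusted p = 3.21e-05). Between 12 h and 2 h, 0 partners were called in either direction by edgeR, 0 at an unadjusted p under 0.05 with the same fold and 0 by DESeq2. The log2 differences between the times were 0.10 to -0.66. Of the partners, c141147_g1 and c145112_g2 were named after their values were seen.

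**Figure D4:**
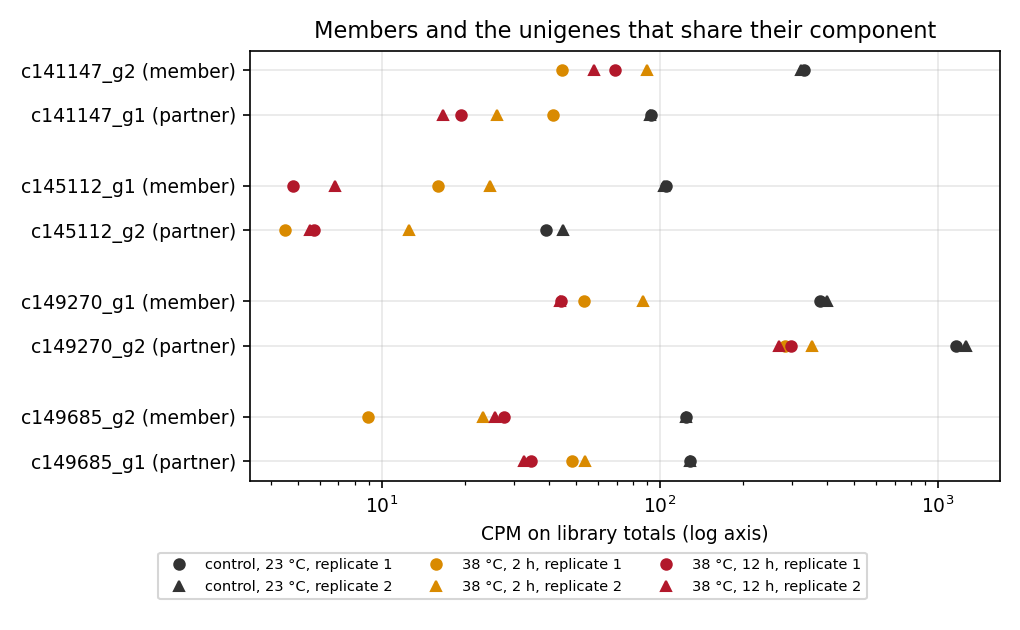
Level in CPM (log axis) of the 4 members that share a component with another unigene, each above its partner. Colours are grey for controls, orange for 2 h and red for 12 h at 38 °C, with circles for replicate 1 and triangles for replicate 2. In all 4 partners the controls lie to the right of every heated library.

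The families of both named members were then examined, leaving the members out. Most names come from tables of unigenes that the study had listed as changed on these same libraries, so that the counts are not independent evidence of a direction. Of 6 other unigenes matched by the words for beta-glucosidases, 2 were lower and 1 higher than the controls at 2 h, and 4 were lower and 2 higher at 12 h, with median log2 differences of -0.42 and -1.20. At 12 h all 3 others matched to BGLU11 were among the lower ones. One of them, c149470_g2, matched to the rice beta-glucosidase Os9bglu31, was at 24.4 and 23.2 CPM in the controls, 9.72 and 11.7 CPM after 2 h, and 5.56 and 4.29 CPM at 12 h. Its log2 difference from the controls was -1.30 ± 0.22 after 2 h (adjusted p = 0.000867) and -2.16 ± 0.25 after 12 h (adjusted p = 1.44e-05). It fell at both times as the member did, from a control level far below that of the member.

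The other BGLU11 matches were c139904_g2, with log2 differences of -1.35 ± 0.25 after 2 h (adjusted p = 0.0013) and the same value after 12 h (adjusted p = 0.000641), and c145976_g1, with -0.88 ± 0.18 at 2 h, short of the fold limit, and -1.06 ± 0.18 at 12 h (adjusted p = 0.0022 and 0.00033). Both were named after their values were seen, as were the next pair that changed at 12 h. A match to BGLU40, c155123_g1, fell at 12 h by a log2 difference of -2.12 ± 0.38 (adjusted p = 0.000456), and at 2 h the value was 0.05 ± 0.30 (adjusted p = 0.92). The glycosyl hydrolase family 17 match c156339_g1 rose at 12 h by 1.03 ± 0.23 (adjusted p = 0.0022). The other unigene that rose was c131771_g2, matched to PDCB3 of Arabidopsis, a callose-binding protein of plasmodesmata, the channels between plant cells. It was at 0 and 0.634 CPM in the controls, 4.73 and 7.17 CPM after 2 h, and 11.1 and 11.9 CPM at 12 h. Both unigenes that rose were matched through the words for glucan endo-beta-glucosidases, enzymes that act on callose and related wall glucans, and not through BGLU names.

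The HXXXD acyltransferases moved in both directions. Of 7 other unigenes tested, 2 were lower and 1 higher than the controls at 2 h, and 4 were lower and 3 higher at 12 h, with median log2 differences of -0.46 and -1.43. The largest fall was in c150960_g1, at 22.2 and 16.1 CPM in the controls, 3.33 and 4.97 CPM after 2 h, and 0.601 and 0.554 CPM at 12 h. Its log2 difference from the controls was -2.35 ± 0.29 after 2 h (adjusted p = 7.93e-05) and -4.90 ± 0.40 after 12 h (adjusted p = 1.02e-06). The largest rise was in c139401_g1, at 0.473 and 1.14 CPM in the controls, 37.7 and 21.5 CPM after 2 h, and 28.3 and 35.7 CPM at 12 h. It rose by 4.97 ± 0.42 after 2 h (adjusted p = 2.74e-06) and 5.34 ± 0.41 after 12 h (adjusted p = 5.95e-07).

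No member belongs to the 2 lists that served as checks of the leaf and of the treatment. Their names too come mostly from unigenes that the study had listed as changed, highly induced ones among them. The counts are therefore not independent evidence of a direction. Of 7 light harvesting and photosystem unigenes tested, 4 were lower than the controls at 2 h and 0 higher, also 0 at an unadjusted p under 0.05 and 0 by DESeq2, and at 12 h 3 were lower and 2 higher, with median log2 differences of -1.35 and -0.98. PSAK, the abundant subunit given above, fell at 12 h by a log2 difference of -1.49 ± 0.14 (adjusted p = 3.96e-06), and at 2 h the value was -0.44 ± 0.14, short of the fold limit. One of those higher at 12 h, c138665_g1, matched to the chlorophyll a/b binding protein CAB1, was at 0.158 and 0 CPM in the controls, 0.512 and 0 CPM after 2 h, and 16.7 and 14.8 CPM at 12 h. Of 36 chaperone and heat shock factor unigenes, 28 were higher and 1 lower at 2 h, and 30 were higher and 4 lower at 12 h, with medians of 5.31 and 5.16. Besides HSP21, the small heat shock protein ATHSP22.0 (c152923_g1) rose from 16.7 and 16.6 CPM in the controls to 1455 and 1790 CPM after 2 h and 1824 and 1784 CPM at 12 h, a log2 difference of 6.87 ± 0.18 at 12 h (adjusted p = 2.17e-10).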

How the data were processed

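RNA from leaves was sequenced in 6 libraries. The authors assembled clean reads with Trinity and deposited expected counts for 179680 unigenes without scaling between libraries. The methods name RSEM, whereas the submitters' processing notes name TopHat2 2.0.12, Bowtie2 2.2.3, HTSeq 0.6.1 and DESeq 1.18.0, and 0.157% of the values are not whole. Strand use in counting is not given in the sources used here.

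Members were chosen on unscaled CPM, with 1 unigene not reported here. For tests, counts were rounded, unigenes were kept by filterByExpr at a minimum count of 10, which left 28005 with 97.7 to 98.4% of the counts, and libraries were scaled by TMM. All 6 libraries entered 1 quasi-likelihood fit in edgeR 4.0.16 (R 4.3.3, limma 3.58.1) with a coefficient per condition, 3 residual degrees of freedom and a common dispersion of 0.0271. Adjustment followed Benjamini and Hochberg over all unigenes tested. A call needed a 2-fold difference or more and an adjusted p no higher than 0.05. Standard errors are the log2 difference divided by the square root of F. In 1 library, 3 counts correspond to 0.38 to 0.472 CPM. The labels call the samples biological replicates without saying which plants were pooled. The p-values judge differences against the spread between these samples, estimated jointly over the 3 conditions.

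The members and lists were chosen with earlier results of these data known. Of 19 lists matched by annotation words, 4 were used, and the other 15 hold no member and are not reported here. Names are best Arabidopsis or rice matches for 1946 unigenes from the part of the study's tables that was read. The fold changes and p-values of the study were not used. The naming rule takes members with an annotation, the 5 with the highest control level, the 5 with the lowest ratio of heat to control, the 3 largest changes in each direction between the times among those called, the 3 unigenes on each side of the limit, and the 2 non-members of each list and of the partners with the smallest adjusted p at 12 h. The other members are named to account for each one. Unigenes of a polyploid may share reads with near-identical copies. Alternative fits used DESeq2 1.42.0, scaling by RLE or by library totals alone, no filter or at least 10 counts in every library, only the 4 libraries compared, and a replicate block. Others dropped the adjustment or the minimum fold, and the rest were other limits for membership, CPM scaled by TMM, the sum without its most abundant member, and each library left out in turn. The tests were tested on simulated data made from these libraries.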

Additional observations from a re-analysis of the deposited data

Results flagged for a closer look

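Of the 16 members, 6 differed between the heat times in the direct comparison of 12 h with 2 h by edgeR's quasi-likelihood test, so that their difference from the shared controls was not the same at both times. The log2 difference between 12 h and 2 h was -2.31 for c151571_g1, -2.15 for c150175_g1, -1.53 for c145112_g1, -1.45 for the acyltransferase c143135_g1 and -1.37 for c92298_g1, and in each of these both libraries of 12 h were below both of 2 h. It was 1.01 for c149685_g2, in which both libraries of 12 h were above both of 2 h. Its partner c149685_g1, with which reads were divided, went from 39.7 to 26.0% of its control mean, and the part of this division was not tested. Among all unigenes tested, 19.6% were called lower and 16.2% higher in this comparison, so that such a call was common and not particular to the members.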

How the results depend on the processing

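Of 240 log2 differences of members between 12 h and 2 h under other settings, 215 kept their direction and their side of the threshold. The members lower at 12 h numbered 8 in place of 5 with no minimum fold change and 5 to 8 with single libraries left out. The member higher at 12 h, c149685_g2, was not called (0 in place of 1) on library totals alone (0.73), with at least 10 counts in every library (0.88), with only the 4 heated libraries (0.95) or without replicate 1 of 2 h (0.49) or of 12 h (0.96), and 2 were called higher with no minimum fold change. Leaving out single libraries gave 0 to 1. With no minimum fold change 1 partner was lower at 12 h than at 2 h. Directions turned in members that were not called. On library totals alone the log2 difference was -0.04 for c140352_g1 and -0.08 for c141147_g2, and for c144978_g1 it was 0.04 with RLE size factors and with DESeq2. Leaving out single libraries gave -1.09 to 0.44 for c129327_g1, -0.21 to 0.80 for c141147_g2, -0.10 to 0.07 for c144978_g1 and -0.70 to 0.01 for c149270_g1. The set held 28 unigenes at a heat limit of 0.35 and 12 at 0.25, 11 at a control minimum of 100 CPM and 23 at 60 CPM, 23 with CPM scaled by TMM, and 16 to 40 with single libraries left out, 40 without 2 h replicate 2. The sum left at 12 h was 12.6% with CPM scaled by TMM and 12.9% without the most abundant member. Replicate numbers did not pair the samples, with correlations of -0.05, 0.045 and -0.037 between same-numbered deviations, and with a replicate block 5 members were lower, 1 was higher and the log2 difference of c149685_g2 was 1.06. The causes were not tested.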
